A study of Mus musculus with 6 samples.

Results

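Mitochondrial ribosomal protein genes are the nuclear genes whose protein-coding symbols start with Mrpl or Mrps followed by a number. The GRCm38 annotation holds 78 of them, pseudogenes left out, and 77 of the 20756 genes in the table are members. Mrpl53 was not analysed here. Transcripts were measured by 3′ tag sequencing in 6 C57BL/6 mouse samples, labelled MTO with no longer name given. Of these, 3 carried guides against both Prkci and Prkcz, which encode both atypical protein kinases C, iota and zeta (sgPrkci/Prkcz), and 3 carried a control guide (sgC). Both groups were listed as untreated and share a culture medium with EGF and B-27. The table is named as in vitro, although the labels also describe subcutaneous injection and the design text mentions tumors. The sources used here give no guide sequences or cut sites and do not say whether the samples derive from 1 clone.

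The mitochondrial ribosome translates the few mRNAs encoded in mitochondrial DNA, all of which specify membrane subunits of the respiratory chain and ATP synthase. Its rRNAs come from mitochondrial DNA, whereas every one of its proteins is encoded in the nucleus, made in the cytosol and imported. Some of the proteins descend from bacterial ribosomal proteins and others are found only in mitochondria. In intestinal tissue, respiration and the state of the mitochondria are linked to how epithelial cells proliferate and differentiate.

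Members fell in sgPrkci/Prkcz samples across both subunits. Of 76 members tested, 47 fell (61.8%), 1 rose and 28 were not called, against 23.8% of all 12207 tested genes that fell and 11.4% that rose (limma on log2(CPM + 1), Benjamini-Hochberg adjusted p under 0.05 over all tested genes). CPM is counts per 1000000 assigned reads, and every limma fold change is a difference of log2(CPM + 1) values, sgPrkci/Prkcz minus sgC. Fold changes given for edgeR and DESeq2 come from their own models of recovered reads. The median fold change of the members was -0.45, and that of all tested genes was -0.17. The fold change lay below 0 for 70 of the 76 members, against 63.7% of all tested genes. All sgPrkci/Prkcz samples lay below all sgC samples for 48 members, of which 42 were among the fallen, while this held for 30% of all tested genes. The 47 and the 42 include Mrps18b, which reached 1 CPM in sgC samples alone, so that its call was bound to be a fall. All sgPrkci/Prkcz samples lay above all sgC samples for 1 member, against 15% of all tested genes.

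The share of fallen members stood above the share of all tested genes in each alternative described here, but its size depended on the scaling and the test. With all genes centred on a median change of 0, 27 members fell and 2 rose, where 14.4% of all tested genes fell and 17.4% rose. Quantile normalization gave 30 fallen and 1 risen member (15.9% and 15.3% of all tested genes), and TMM-scaled CPM gave 29 and 2 (16.5% and 16%). On recovered reads edgeR gave 28 and 2 (18.2% and 19.9%), and DESeq2 gave 14 and 1 (8.85% and 12.3%). Limma without trend gave 30 and 0 (16.2% and 7.45%).

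The summed level of the 77 members was 2437, 2476 and 2445 CPM in the sgPrkci/Prkcz samples, against 3242, 3480 and 3220 CPM in the sgC samples. The sgPrkci/Prkcz samples lay close together and below every sgC sample, and the mean was lower by 26.0% (2453 ± 20.5 CPM in sgPrkci/Prkcz against 3314 ± 144 CPM in sgC, SD, n = 3 each). Relative to the sgC mean, the median member stood at -0.49, -0.48 and -0.52 on the log2 scale in the sgPrkci/Prkcz samples, against -0.04, 0.09 and -0.02 in the sgC samples. The sgC sample that stood highest was replicate 2, in which 15 members lay below the sgC mean, while 44 and 45 did in the other sgC samples. Without that sample 27 members fell, against 16.7% of all tested genes. In these samples fewer cells expressing a gene and less RNA per cell cannot be told apart.

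Depth moved with genotype. The sgPrkci/Prkcz libraries held 1543826 to 1808292 reads and the sgC libraries 2821908 to 3048170. Thinned to equal depth, 32 members fell and 1 rose, against 17.6% and 9.39% of all tested genes. Of the guide targets, Prkcz stood at 3.98, 1.66 and 0.648 CPM in sgPrkci/Prkcz samples, against 6.37, 5.58 and 4.96 CPM in sgC samples, and fell by 1.24 on the log2 scale (limma, Benjamini-Hochberg adjusted p = 0.00967). DESeq2, limma without trend and leaving out sgPrkci/Prkcz replicate 3 each ended that call. Prkci stood at 55.1, 54.2 and 53.8 CPM in sgPrkci/Prkcz samples, against 46.6, 54.5 and 63.8 CPM in sgC samples (log2 fold change 0.00, adjusted p = 0.986), and a 3′ tag outside an edited site does not check a guide. All 6 epithelial markers were present, with a summed level of 3561 to 4025 CPM in sgPrkci/Prkcz and 3352 to 3894 CPM in sgC. The 5 fibroblast markers in the table summed to 0.553 to 0.648 CPM in sgPrkci/Prkcz and 0.328 to 2.35 CPM in sgC. The 2 immune markers in the table summed to 7.74 to 14.3 CPM in sgPrkci/Prkcz and 5.25 to 7.38 CPM in sgC. The endothelial genes Pecam1 and Cdh5 were at 0 in every sample.

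**Figure D1:**
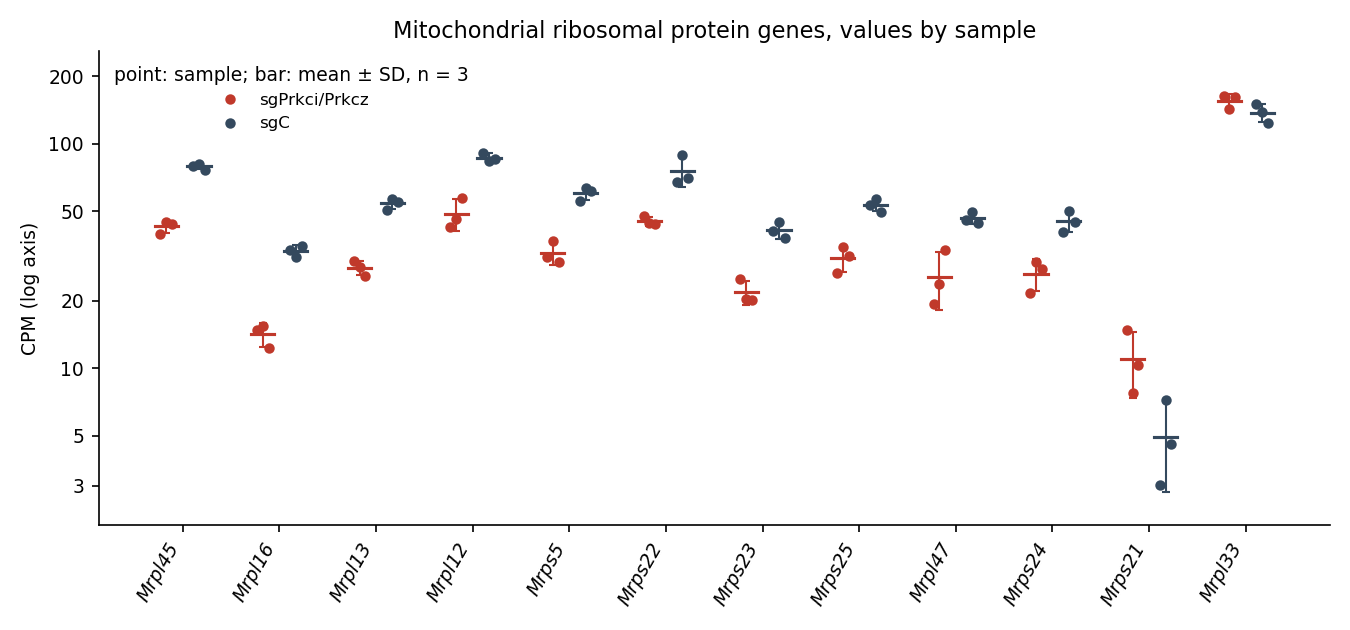
CPM on a log axis in each sample for the 10 fallen members with the smallest adjusted p, the risen member Mrps21 and the member with the highest CPM, Mrpl33, with sgPrkci/Prkcz in red left of sgC in dark blue. Points are samples and bars are mean ± SD (n = 3 each). The groups are apart for the 10 fallen members and for Mrps21 and overlap for Mrpl33.

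Mitochondrial ribosomal protein genes are known targets of the transcription factors NRF1 and the ETS factor GABP, and YY1 acts on many genes of mitochondria. RefSeq windows of GRCm38.p6, 250 bases before to 50 after a gene's start, were available for 68 members and were searched on both strands for 4 strings. The NRF1 letters GCGCNTGCG occurred in 26.5% of the member windows, in 15.0% of the 8949 windows of tested genes and in 6.31% of all 32851 windows. The ETS letters CCGGAAG occurred in 35.3%, 20.04% and 8.86% of the same sets, and the YY1 letters AAGATGGC in 17.6%, 5.07% and 2.75%. The E-box CACGTG occurred in 7.35%, 10.5% and 7.15%. Among the 42 windows of fallen members, 21.4% held the NRF1 letters, 28.6% the ETS letters and 23.8% the YY1 letters, while among the 24 windows of members not called the shares were 33.3%, 45.8% and 8.33%. These shares describe small sets, and a match is not a site. The median GC content was 58.2% in member windows and 61.3% in those of tested genes. A few windows are printed as examples, none of them from a member that was not called. They are Mrpl45 and Mrpl12, fallen members with NRF1 letters, Mrps22 with ETS letters, Mrps24 with YY1 letters, and Mrpl16 with no match. The window of Mrps21, the member that rose, is printed as well and holds NRF1 and ETS letters. Each runs 5′ to 3′ along its gene, and capitals mark the matched letters.
Mrpl45 (chr11:97315466-97315765, plus strand): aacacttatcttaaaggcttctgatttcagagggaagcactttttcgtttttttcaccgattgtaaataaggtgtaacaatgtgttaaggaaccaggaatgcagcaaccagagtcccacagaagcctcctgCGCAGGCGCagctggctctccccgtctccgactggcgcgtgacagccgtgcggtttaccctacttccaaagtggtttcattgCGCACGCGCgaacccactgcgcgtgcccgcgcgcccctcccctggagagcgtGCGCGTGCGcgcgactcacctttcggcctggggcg
Mrpl12 (chr11:120484387-120484686, plus strand): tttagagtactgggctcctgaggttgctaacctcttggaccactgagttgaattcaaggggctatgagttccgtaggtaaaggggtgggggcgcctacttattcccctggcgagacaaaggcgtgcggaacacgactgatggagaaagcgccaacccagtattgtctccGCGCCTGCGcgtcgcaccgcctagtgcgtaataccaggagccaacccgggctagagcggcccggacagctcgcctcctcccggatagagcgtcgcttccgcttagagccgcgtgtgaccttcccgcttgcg
Mrps22 (chr9:98601630-98601929, minus strand): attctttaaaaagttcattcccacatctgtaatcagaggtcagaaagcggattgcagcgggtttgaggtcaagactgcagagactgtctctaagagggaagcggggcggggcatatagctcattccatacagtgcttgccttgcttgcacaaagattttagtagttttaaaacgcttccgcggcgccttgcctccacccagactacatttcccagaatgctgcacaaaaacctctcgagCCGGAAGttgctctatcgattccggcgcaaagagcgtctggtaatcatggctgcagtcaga
Mrps24 (chr11:5707652-5707951, minus strand): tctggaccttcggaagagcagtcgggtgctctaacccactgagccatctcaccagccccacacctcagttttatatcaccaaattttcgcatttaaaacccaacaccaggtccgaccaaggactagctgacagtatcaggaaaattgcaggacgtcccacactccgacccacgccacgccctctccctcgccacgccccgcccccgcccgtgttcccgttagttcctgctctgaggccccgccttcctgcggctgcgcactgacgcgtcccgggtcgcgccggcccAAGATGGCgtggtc
Mrpl16 (chr19:11770165-11770464, plus strand): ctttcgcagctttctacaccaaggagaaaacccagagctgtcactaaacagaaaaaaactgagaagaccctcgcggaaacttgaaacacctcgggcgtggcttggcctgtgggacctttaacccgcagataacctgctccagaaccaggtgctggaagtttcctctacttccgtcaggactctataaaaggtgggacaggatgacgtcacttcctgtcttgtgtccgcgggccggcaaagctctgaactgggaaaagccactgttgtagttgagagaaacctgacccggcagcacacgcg
Mrps21 (chr3:95871465-95871764, minus strand): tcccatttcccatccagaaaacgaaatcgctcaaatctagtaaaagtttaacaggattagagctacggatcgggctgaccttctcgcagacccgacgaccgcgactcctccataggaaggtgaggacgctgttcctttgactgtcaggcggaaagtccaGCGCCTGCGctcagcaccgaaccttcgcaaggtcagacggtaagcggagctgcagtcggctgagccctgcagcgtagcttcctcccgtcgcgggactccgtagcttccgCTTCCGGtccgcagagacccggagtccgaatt
The Mrpl45 window held 3 NRF1 matches. The RefSeq windows of the neighbours Mrpl46 and Mrps11, which both fell, overlap by 141 bases, so those 2 windows share sequence. In GENCODE the 2 genes overlap at their starts, at 78783119 for Mrps11 (plus strand) and 78783531 for Mrpl46 (minus strand). The call on Mrps11 was kept in 5 of the 16 alternatives that tested it.

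In the large subunit, which joins amino acids into the new chain, 32 of 50 tested members fell, 0 rose and the median fold change was -0.45. The fallen share was 64%, where 23.8% of all tested genes fell and 11.4% rose, with a median of -0.17. The summed level of the large subunit members was 1766 ± 12.04 CPM in sgPrkci/Prkcz samples and 2365 ± 88.1 CPM in sgC samples. After centring all genes on a median change of 0, 18 of the 50 fell (36%), and 1, Mrpl33, rose. Of all tested genes 14.4% then fell and 17.4% rose. At an unadjusted limma p under 0.05 the count of risen members was 0 as well, while edgeR called 1, again Mrpl33, and DESeq2 called 0.

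The stalk of the large subunit recruits translation factors, and 3 of its 4 members fell (75%, against 23.8% of all tested genes). After centring, 2 of the 4 fell (50%, against 14.4%). Mrpl12, the stalk protein itself, stood at 42.6, 46.5 and 57.6 CPM in sgPrkci/Prkcz samples, against 91.2, 83.7 and 85.8 CPM in sgC samples. Every sgPrkci/Prkcz sample lay below every sgC sample (log2 fold change -0.83, limma, Benjamini-Hochberg adjusted p = 8.61e-06). Mrpl10, which anchors Mrpl12 to the ribosome, changed by -0.65 (adjusted p = 0.00445) and Mrpl54 by -0.58 (adjusted p = 0.0105). Without sgC replicate 2 neither was called, and Mrpl54 was also not called without sgPrkci/Prkcz replicate 1. Neither was called by DESeq2, and Mrpl54 was not called by edgeR or after centring. Of 18 alternatives Mrpl10 kept its call in 14 and Mrpl54 in 9. With chromosome medians removed Mrpl12 was at -0.38 (adjusted p = 0.0193), and neither Mrpl10 nor Mrpl54 was called. Mrpl11, at the base of the stalk, stood at 21.0, 21.0 and 17.5 CPM in sgPrkci/Prkcz samples, against 21.8, 20.7 and 15.6 CPM in sgC samples. Its groups overlapped and it was not called (0.04, adjusted p = 0.891).

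In the central protuberance, the crest that faces the small subunit, the median was -0.65. Of its 8 members 7 fell (87.5%, against 23.8% of all tested genes). They were Mrpl40 (-0.81), Mrpl46 (-0.84), Mrpl38 (-0.78), Mrpl58 (-0.72), Mrpl48 (-0.58), Mrpl55 (-0.57) and Mrpl18 (-0.37). Mrpl58 is a peptidyl-tRNA hydrolase that became a ribosomal protein. Mrpl18 was also next to the highest member in CPM, with 95.4, 106 and 90.7 CPM in sgPrkci/Prkcz samples, against 127, 141 and 111 CPM in sgC samples. Its groups did not overlap, but the call (limma, Benjamini-Hochberg adjusted p = 0.00854) was lost after centring all genes on a median change of 0 and without sgC replicate 2. Without that sample Mrpl48 and Mrpl55 were not called either, and Mrpl55 was also not called without replicate 1 of either group, nor Mrpl48 without sgC replicate 3. Mrpl27, whose bacterial homologue reaches to the peptidyl transferase centre, was not called (-0.43, adjusted p = 0.0693). After the same centring, 4 of the 8 fell (50%, against 14.4% of all tested genes). With chromosome medians removed, Mrpl38, Mrpl58, Mrpl48, Mrpl55 and Mrpl18 were not called. By DESeq2 Mrpl40 and Mrpl38 alone of the fallen were still called, and by edgeR Mrpl55 and Mrpl18 were not.

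Around the exit tunnel, through which the new chain leaves, 3 of 8 members fell (37.5%) and the median was -0.24. Of all tested genes 23.8% fell, with a median of -0.17. After centring, 2 of these 8 members fell (25%, against 14.4% of all tested genes) and their median was -0.08. Mrpl45 (ENSMUSG00000018882, chromosome 11, 97315716 to 97329920, plus strand, GENCODE annotation of GRCm38), which in mammals holds the ribosome to the inner membrane beside the tunnel exit, had the smallest adjusted p of all members. It stood at 39.8, 44.8 and 44.0 CPM in sgPrkci/Prkcz samples, against 80.1, 81.4 and 76.9 CPM in sgC samples. Both groups were tight and far apart (log2 fold change -0.88, limma, Benjamini-Hochberg adjusted p = 2.21e-06), and with the median change of chromosome 11 removed it was at -0.43 (adjusted p = 0.00644). Mrpl47, which lines the rim of the exit, stood at 19.3, 23.8 and 33.7 CPM in sgPrkci/Prkcz samples, against 45.9, 49.5 and 44.3 CPM in sgC samples. The sgPrkci/Prkcz samples spread more widely than the sgC samples but lay below all of them (-0.87, adjusted p = 0.000204). Mrpl17 changed by -0.37 (adjusted p = 0.0229), a call kept in 9 of 18 alternatives. It was lost after centring, by edgeR, by DESeq2 and with chromosome medians removed, and without sgPrkci/Prkcz replicate 1 or sgC replicate 2. The 5 members not called were Mrpl22, Mrpl23, Mrpl24, Mrpl39 and Mrpl44. Mrpl22, whose homologue forms the tunnel constriction, stood at 4.54, 6.08 and 4.53 CPM in sgPrkci/Prkcz samples, against 6.37, 6.23 and 9.21 CPM in sgC samples (-0.44, adjusted p = 0.251). Mrpl39 stood at 14.8, 14.9 and 24.0 CPM in sgPrkci/Prkcz samples, against 14.1, 18.4 and 18.8 CPM in sgC samples (0.04, adjusted p = 0.912). The 95% interval of Mrpl22 (-1.03 to 0.15) includes a fall of the size seen in Mrpl45, and that of Mrpl39 (-0.40 to 0.48) does not.

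Elsewhere in the large subunit, Mrpl16 and Mrpl13 fell most clearly. Mrpl16, whose bacterial homologue helps position tRNA near the catalytic centre, stood at 14.8, 15.5 and 12.3 CPM in sgPrkci/Prkcz samples, against 33.9, 31.5 and 35.1 CPM in sgC samples. Its fold change of -1.19 (standard error 0.18, limma, Benjamini-Hochberg adjusted p = 6.83e-06) was the largest fall of a large subunit member. Mrpl13, a homologue of an early-binding bacterial protein, stood at 30.1, 28.2 and 25.9 CPM in sgPrkci/Prkcz samples, against 51.0, 57.1 and 55.3 CPM in sgC samples (-0.93, adjusted p = 8.36e-06). Neither gene had overlapping groups. Mrpl9 also fell, by 0.80 on the log2 scale (adjusted p = 0.00063).

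In the small subunit, which reads the mRNA, 15 of 26 tested members fell and 1 rose, with a median of -0.46. These shares are 57.7% and 3.85%, against 23.8% and 11.4% of all tested genes. The summed level was 686 ± 7.38 CPM in sgPrkci/Prkcz samples and 949 ± 57.5 CPM in sgC samples. After centring, 9 fell and 1 rose (34.6% and 3.85%, against 14.4% and 17.4% of all tested genes). The ratio of the summed large to the summed small subunit members was 2.59, 2.56 and 2.57 in sgPrkci/Prkcz samples, against 2.55, 2.43 and 2.50 in sgC samples. The sgPrkci/Prkcz ratios lay just above the sgC ratios, by less than the range within sgC.

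Mrps5 and Mrps24, homologues of bacterial proteins near the path by which mRNA enters, both fell. Mrps5 stood at 31.2, 37.1 and 29.8 CPM in sgPrkci/Prkcz samples, against 55.7, 63.3 and 61.7 CPM in sgC samples (-0.87, limma, Benjamini-Hochberg adjusted p = 1.7e-05). Mrps24 stood at 21.6, 29.9 and 27.9 CPM in sgPrkci/Prkcz samples, against 40.6, 50.2 and 45.0 CPM in sgC samples (-0.76, adjusted p = 0.000432). Neither pair of groups overlapped. Among proteins found only in mitochondria, Mrps22, Mrps23 and Mrps25 fell. Mrps22, a structural protein of the small subunit whose loss in humans impairs the respiratory chain, stood at 47.7, 44.2 and 44.0 CPM in sgPrkci/Prkcz samples, against 67.7, 89.2 and 70.5 CPM in sgC samples (-0.72, adjusted p = 8.1e-05). Mrps23 stood at 25.0, 20.5 and 20.1 CPM in sgPrkci/Prkcz samples, against 40.9, 44.9 and 37.9 CPM in sgC samples (-0.89, adjusted p = 8.1e-05). In sgC replicate 2 both were at their highest. Mrps25 stood at 26.7, 34.8 and 31.7 CPM in sgPrkci/Prkcz samples, against 53.6, 56.8 and 50.0 CPM in sgC samples (-0.77, adjusted p = 0.000136). All 3 had groups that did not overlap. Mrps7, whose bacterial homologue starts assembly of the head of the small subunit, changed by -0.68 (adjusted p = 0.000956), and Mrps26 by -0.88 (adjusted p = 0.00102). With the median change of each chromosome removed, Mrps7 stood at -0.24 (adjusted p = 0.249) and Mrps24 at -0.32 (adjusted p = 0.128), and neither was called, while Mrps23 stood at -0.45 (adjusted p = 0.0301). DESeq2 did not call Mrps7 either.

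**Figure D2:**
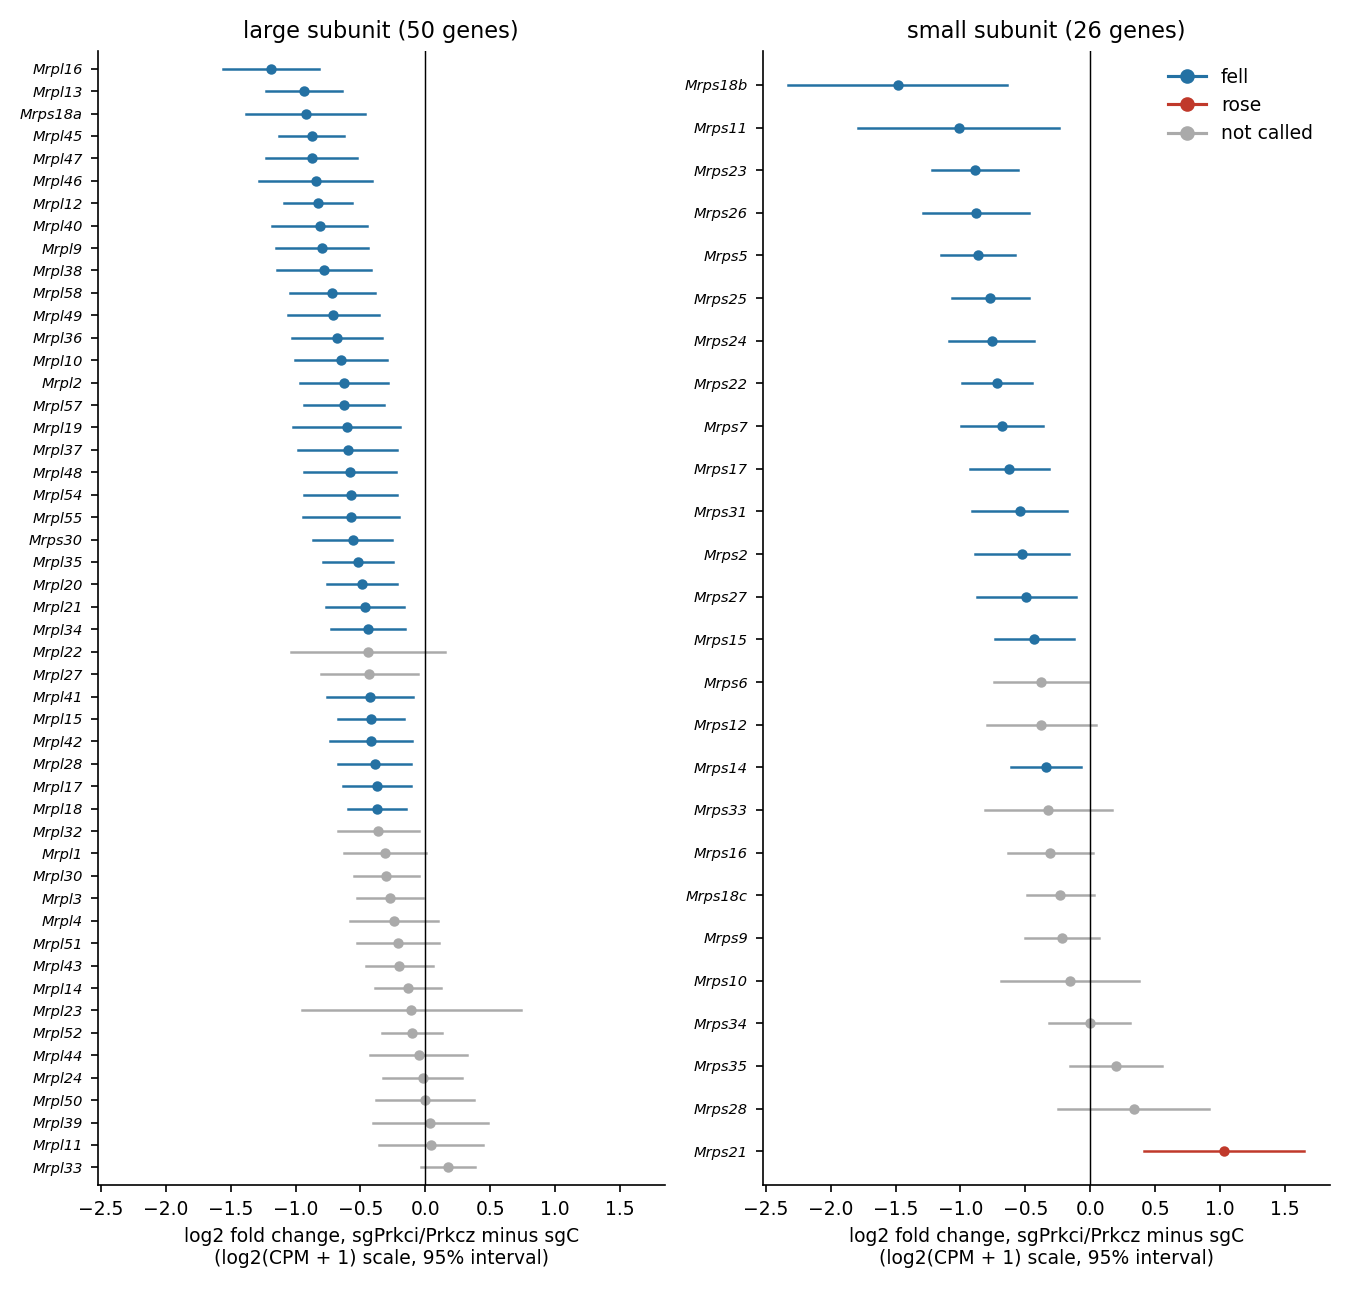
Log2 fold change with its 95% interval (limma) of the 50 large subunit members on the left and the 26 small subunit members on the right, sgPrkci/Prkcz minus sgC, ordered by size. Blue members fell, red rose and grey were not called, and 70 of the 76 points lie below 0.

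The 3 paralogs of Mrps18, which descend from 1 bacterial protein and occupy different places in the mitochondrial ribosome, had fold changes of -0.92, -0.23 and -1.48. Mrps18a, which sits in the large subunit despite its symbol, stood at 13.1, 8.30 and 12.3 CPM in sgPrkci/Prkcz samples, against 25.5, 24.3 and 16.7 CPM in sgC samples (-0.92, limma, Benjamini-Hochberg adjusted p = 0.00184). Mrps18c, which keeps the bacterial position, stood at 52.3, 58.1 and 61.5 CPM in sgPrkci/Prkcz samples, against 59.7, 72.5 and 70.5 CPM in sgC samples (-0.23, adjusted p = 0.159). Its groups overlapped. Mrps18b was near the detection limit, with 0, 0.553 and 0 CPM in sgPrkci/Prkcz samples, against 1.68, 2.30 and 2.83 CPM in sgC samples (-1.48, adjusted p = 0.00585). That is 1 pooled read against 20, a ratio of sgPrkci/Prkcz to sgC of 0.0866 with an exact 95% counting interval of 0.00209 to 0.541. It passed the filter through the sgC samples alone, so a call on it was bound to be a fall. The paralogs were not tested against each other.

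Mrps21 (ENSMUSG00000054312, chromosome 3, 95862634 to 95871519, minus strand, GRCm38), a homologue of a small bacterial protein near the mRNA exit, was the 1 member that rose. It stood at 14.8, 7.74 and 10.4 CPM in sgPrkci/Prkcz samples, against 3.02, 7.22 and 4.61 CPM in sgC samples. The groups did not overlap, though the lowest sgPrkci/Prkcz sample was close to the highest sgC sample (log2 fold change 1.03, 95% interval 0.41 to 1.64, limma, Benjamini-Hochberg adjusted p = 0.00881). Without sgPrkci/Prkcz replicate 1, or without sgC replicate 1, no member was called as risen, against 9.48% and 10.9% of all tested genes, and the same held with limma without trend. By edgeR on recovered reads Mrps21 rose by 1.28 (adjusted p = 0.00204).

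Mrpl33, a small protein of the large subunit, had the highest CPM of the members, on a scale of 3′ tags that is not divided by length. It stood at 163, 143 and 161 CPM in sgPrkci/Prkcz samples, against 150, 139 and 124 CPM in sgC samples. The groups overlapped and the fold change of 0.17 (95% interval -0.03 to 0.38, limma, Benjamini-Hochberg adjusted p = 0.185) was not called. After centring on the median change its adjusted p was 0.00946, and by edgeR it rose by 0.31 (adjusted p = 0.0119). Mrpl52, which followed Mrpl18 in CPM, stood at 86.9, 90.7 and 73.2 CPM in sgPrkci/Prkcz samples, against 92.9, 85.3 and 90.4 CPM in sgC samples (-0.10, 95% interval -0.34 to 0.13, adjusted p = 0.523). Its interval excludes a fall of the size seen for the median member, and its sign turned to 0.0632 after centring on the median change. Mrps28, of the small subunit, stood at 13.1, 8.30 and 7.77 CPM in sgPrkci/Prkcz samples, against 4.69, 8.86 and 9.21 CPM in sgC samples (0.33, adjusted p = 0.391). At the low end, Mrpl23 held 1.14, 0.553 and 0.648 CPM in sgPrkci/Prkcz samples, against 1.01, 0.656 and 1.06 CPM in sgC samples (-0.11, adjusted p = 0.87). Mrps36, now assigned to the α-ketoglutarate dehydrogenase complex and not to the ribosome, held 0, 2.21 and 0 CPM in sgPrkci/Prkcz samples, against 1.34, 0.328 and 0.709 CPM in sgC samples and was not tested. At these levels of a few reads per sample no difference was detectable, and reads may be split with 4 pseudogenes named after members in the table.

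The 28 members not called ran from -0.44 to 0.33, and the 47 fallen members from -1.48 to -0.34 with a median of -0.63, so the ranges overlapped. The -1.48 is Mrps18b, which passed the filter through the sgC samples alone, and the next largest fall was Mrpl16 at -1.19. Of the fallen members, 5 had overlapping groups, namely Mrps11, Mrpl34, Mrps15, Mrps27 and Mrps14. Among the fallen and not called members with a mean of at least 31.6 CPM, 25 of 39 fell with a median of -0.42. Among those with a lower mean, 22 of 36 fell with a median of -0.56. Of all tested genes, at any level, 23.8% fell, with a median of -0.17. With the filter set to a mean of at least 5 CPM, 45 of 73 members fell (61.6%), against 27.6% of 9425 genes.

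Of the ribosomal proteins that carry other symbols 5 were tested, and all 5 fell, against 23.8% of all tested genes. Gadd45gip1, a protein of the central protuberance also known as CRIF1, stood at 25.6, 33.2 and 30.4 CPM in sgPrkci/Prkcz samples, against 58.3, 54.8 and 53.2 CPM in sgC samples (-0.88, limma, Benjamini-Hochberg adjusted p = 2.05e-05). Dap3, the GTP-binding protein of the small subunit, stood at 61.9, 74.7 and 66.7 CPM in sgPrkci/Prkcz samples, against 90.5, 92.8 and 97.5 CPM in sgC samples (-0.46, adjusted p = 0.00213). Neither pair of groups overlapped. The others were Chchd1 (-0.46), Ptcd3 (-0.65) and Aurkaip1 (-0.34). Ptcd3 was not called without replicate 2 of either group, and Aurkaip1 not without any single sample other than sgPrkci/Prkcz replicate 3. After centring on the median change, 3 of the 5 fell (60%, against 14.4% of all tested genes).

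Of 31 genes for factors that assemble the ribosome or modify its rRNA, 10 fell and 1 rose. C1qbp, a matrix protein that binds the mitochondrial ribosome, stood at 127, 142 and 122 CPM in sgPrkci/Prkcz samples, against 245, 313 and 334 CPM in sgC samples (-1.18, limma, Benjamini-Hochberg adjusted p = 4.6e-10). The groups were far apart. Ngrn and Rcc1l, of a module that protects the large rRNA, changed by -0.62 and -1.01, and Mpv17l2, an inner membrane protein needed for assembly, by -0.72. DESeq2 did not call Ngrn, Rcc1l or Mpv17l2 (adjusted p = 0.0719, 0.0824 and 0.0827). With chromosome medians removed Mpv17l2 stood at -0.33 and was not called (limma, adjusted p = 0.152). Grsf1, an RNA-binding protein of mitochondrial RNA granules, rose by 0.27 (adjusted p = 0.0228), a call lost without replicate 2 or replicate 3 of either group. That call was also lost when thinned to equal depth and with limma without trend. Of 15 translation factors 5 fell and 0 rose, and 0 rose at an unadjusted limma p under 0.05, by edgeR and by DESeq2. Mtif2, the initiation factor that brings the first tRNA, stood at 33.0, 44.8 and 42.8 CPM in sgPrkci/Prkcz samples, against 70.7, 80.0 and 69.8 CPM in sgC samples (-0.87, adjusted p = 1.2e-05). The fallen shares, 32.3% and 33.3%, stand beside 23.8% of all tested genes, of which 11.4% rose. After centring on the median change, 7 of the 31 (22.6%) and 3 of the 15 (20%) fell, against 14.4% of all tested genes.

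Of the rRNAs and mRNAs encoded in mitochondrial DNA 9 were tested, and 3 rose and 0 fell, against 11.4% and 23.8% of all tested genes. The count of fallen ones was 0 also at an unadjusted limma p under 0.05, by edgeR and by DESeq2. With the median of each chromosome removed, which for chromosome M was 0.31 over 21 tested genes, 0 of the 9 rose and 3 fell, against 16.1% and 13.1% of all tested genes. The 9 are among those 21 genes, so a shift that they share was removed with the median. That setting therefore cannot show whether these genes rose or fell as a set. The large rRNA mt-Rnr2 stood at 85854, 81405 and 83574 CPM in sgPrkci/Prkcz samples, against 76724, 72203 and 70947 CPM in sgC samples (0.19, limma, Benjamini-Hochberg adjusted p = 0.00158), a call lost without sgPrkci/Prkcz replicate 1. The small rRNA mt-Rnr1 stood at 30722, 29036 and 34124 CPM in sgPrkci/Prkcz samples, against 32916, 27357 and 28065 CPM in sgC samples, with overlapping groups (0.09, adjusted p = 0.318). By edgeR mt-Rnr1 rose by 0.23 (adjusted p = 0.0405). The 3 genes called as fallen relative to the chromosome M median were mt-Rnr1 (-0.22, adjusted p = 0.0158), mt-Rnr2 (-0.12, adjusted p = 0.0493) and mt-Nd1 (-0.17, adjusted p = 0.0491). These p-values, from limma, take the removed median as fixed. The mRNA mt-Cytb, of respiratory complex III, rose by 0.31 (adjusted p = 0.000547) and mt-Nd6, of complex I, by 0.56 (adjusted p = 0.00384). After centring on the median change, 7 of the 9 rose, against 17.4% of all tested genes, and by edgeR 8 did, against 19.9%. The difference between these genes and the members was not tested. The libraries were primed for 3′ tags of polyadenylated RNA, so the rRNA values are levels of tags in these libraries.

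Beside 23.8% of all tested genes that fell and 11.4% that rose, 6 of 18 genes that replicate and express mitochondrial DNA fell (33.3%). Of the 18, 0 rose (0 also unadjusted, by edgeR and by DESeq2). Among the fallen were Elac2, which trims tRNA ends (-1.20), Polg, the DNA polymerase (-1.11), and Tfam, which packages the DNA and starts transcription (-0.48). The call on Tfam was lost after centring (adjusted p = 0.0618). Of 20 genes of protein import and mitochondrial mass, 12 fell (60%, against the same 23.8%) and 2 rose (10%, against the same 11.4%). Hspa9, the matrix chaperone that drives import, stood at 345, 389 and 331 CPM in sgPrkci/Prkcz samples, against 614, 759 and 779 CPM in sgC samples (-1.01, limma, Benjamini-Hochberg adjusted p = 3.64e-10). Timm44, which ties Hspa9 to the import channel, changed by -0.89 (adjusted p = 7.28e-06) and the chaperonin Hspd1 by -0.66 (adjusted p = 2.39e-06). The channel genes Vdac2 and Timm17a rose, by 0.27 and 0.29, and neither call held without sgPrkci/Prkcz replicate 1 or replicate 3. After centring on the median change, 5 of the 20 fell (25%) and 2 rose, and 2 of the 18 fell (11.1%). Of all tested genes 14.4% then fell and 17.4% rose.

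Among 9 regulators of mitochondrial biogenesis 2 rose and 2 fell, where 11.4% of all tested genes rose and 23.8% fell. After centring and by edgeR, 4 of the 9 rose, against 17.4% and 19.9% of all tested genes. The coactivator Ppargc1a stood at 34.7, 45.3 and 45.3 CPM in sgPrkci/Prkcz samples, against 25.5, 22.0 and 22.3 CPM in sgC samples (0.81, limma, Benjamini-Hochberg adjusted p = 0.000262). Its relatives Pprc1 and Ppargc1b changed the other way, by -1.08 (adjusted p = 0.00166) and -1.16 (adjusted p = 0.00578). Pprc1 stood at 7.39, 4.42 and 7.77 CPM in sgPrkci/Prkcz samples, against 11.7, 16.4 and 15.9 CPM in sgC samples. Neither Ppargc1a nor Pprc1 had overlapping groups. Yy1 rose by 0.22 (adjusted p = 0.0399), and the call was lost when any single sgPrkci/Prkcz sample, sgC replicate 2 or sgC replicate 3 was left out. Nrf1 and Gabpa, whose products bind the NRF1 and ETS letters, were not called (0.03 and 0.36, adjusted p = 0.896 and 0.0783). Gabpa was called as risen after centring (0.52, adjusted p = 0.0108), by edgeR (0.52, adjusted p = 0.00865) and with chromosome medians removed (0.50, adjusted p = 0.0159). Myc, a general activator of biogenesis, was not called (-0.06, adjusted p = 0.859).

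**Figure D3:**
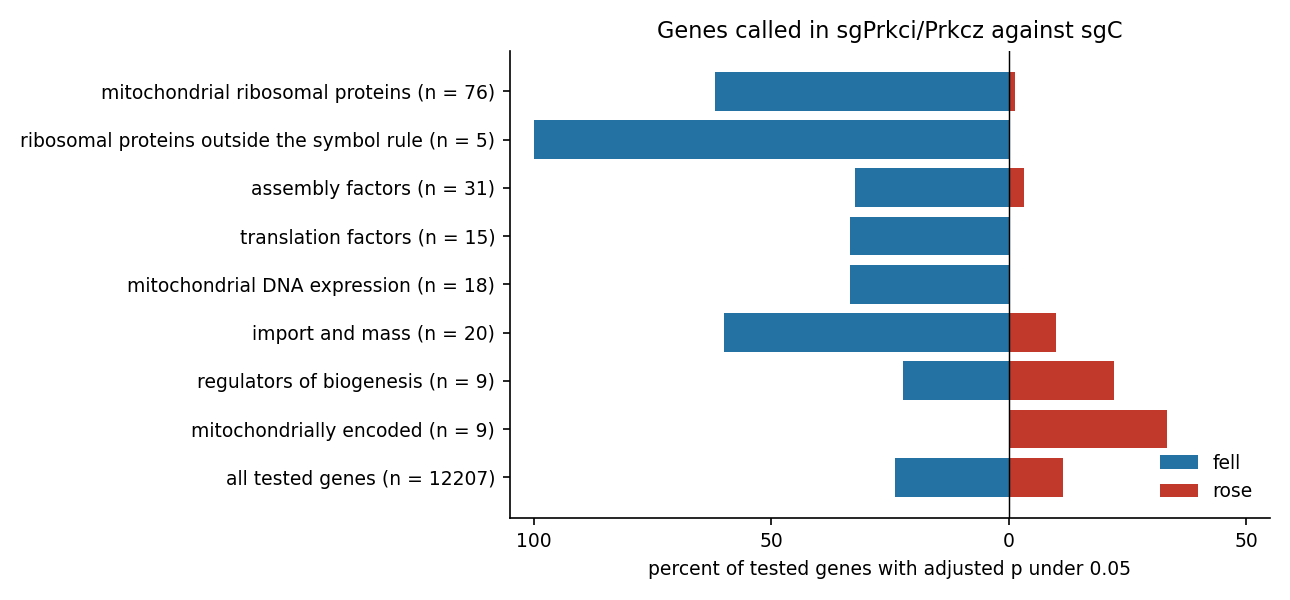
Percent of tested genes called as fallen (blue, to the left of 0) and risen (red, to the right), limma with adjusted p under 0.05, for the members, the companion lists and all tested genes. The 5 ribosomal proteins outside the symbol rule lie furthest to the left, followed by the members (61.8%) and, close to them, import and mass (60%). The mitochondrially encoded genes show rises alone.

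Members lie on 17 chromosomes, and at least 1 fell on each of them. The largest group was on chromosome 11, where 9 of 11 fell with a median of -0.72, among them Mrpl45, Mrpl12, Mrps23 and Mrps24. The other tested genes of chromosome 11 were also shifted, with 45.3% fallen and a median of -0.44. Those of chromosomes 15 and 8 were shifted nearly as much, with 40.0% and 37.4% fallen and medians of -0.39 and -0.40. On 16 of the 17 chromosomes the median of the members lay below that of the other genes, chromosome 3 being the exception, which holds Mrps21 and 4 other members. Some of these medians rest on very few genes, as chromosome 15 holds 1 member and chromosomes 8 and 10 hold 2 each. Once the median of each chromosome was removed, 27 members fell and 2 rose, against 13.1% and 16.1% of all tested genes. Of the 9 fallen members of chromosome 11, Mrps23, Mrpl45 and Mrpl12 were then still called, at -0.45, -0.43 and -0.38. Mrpl38, Mrps24, Mrpl58, Mrps7, Mrpl10 and Mrpl55 were not, at -0.34 to -0.13. Mrpl13, on chromosome 15, was still called at -0.54 (limma, adjusted p = 0.0036). On chromosome 8, Mrps31 and Mrpl34 were no longer called, at -0.15 and -0.05 (limma, adjusted p = 0.573 and 0.848).

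**Figure D4:**
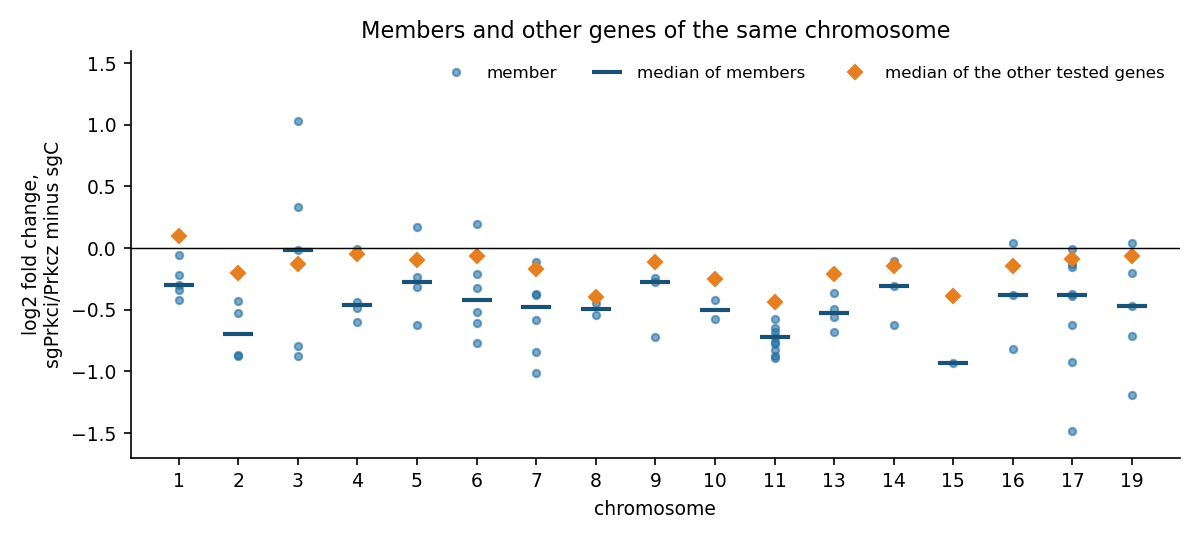
Log2 fold change (sgPrkci/Prkcz minus sgC) of each tested member by chromosome, with the median of the members as a dark bar and the median of the other tested genes as an orange diamond. The members' bar lies below the diamond on 16 of 17 chromosomes, and chromosome 11 has the largest group of members. Chromosome 15 holds 1 member and chromosomes 8 and 10 hold 2 each.

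No source used here gives the strand setting of the authors' counting. A gene on the opposite strand lies over the 3′ end of 14 members, including Mrpl47 (Actl6a), Mrps25 (Nr2c2) and Mrpl33 (Rbks), so reads of the pair may not be told apart. For 4 members a gene on the same strand lies over the 3′ end, where the strand of a read would not separate the pair. They are Mrpl2 (Gm26904), Mrps6 (Gm49711), Mrpl33 (Gm43809) and Mrps34 (Nme3). Nothing in the labels ties the replicates to separate cultures, and the p-values therefore rest on a spread that may be technical.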

How the data were processed

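The deposited file is a single in vitro table of 20756 genes in CPM (counts per 1000000 assigned reads), which the authors computed on GRCm38, per the submitters' processing notes. Libraries were made with QuantSeq 3′ FWD, per the labels' protocols. Aligner, counter, strand setting and the handling of molecular identifiers: not given in the sources used here. Columns were matched to samples by title, with 0 other value columns. Symbols came from GENCODE on GRCm38 (20675 identifiers had one). A total of 1904 genes were at 0 throughout.

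Within each library 100% of the CPM values were whole multiples of 1 read (relative tolerance 1e-06), and reads were recovered. One read was worth 0.553 to 0.648 CPM in sgPrkci/Prkcz and 0.328 to 0.354 CPM in sgC. Every pair of replicates differed beyond sampling noise, with chi-square divided by its degrees of freedom between 1.56 and 3.40 (genes of 20 or more pooled reads). Counting intervals are exact, at 95%, and cover counting error only.

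The test was limma 3.58.1 (R 4.3.3, trend, robust) on log2(CPM + 1) of all 6 samples, with genotype as the factor, for genes that reached 1 CPM in 3 or more samples, Benjamini-Hochberg over all 12207 tested genes, threshold 0.05. The log2(value + 1) scale understates the change of low genes. The limma fit was checked on simulated counts with known changes, all larger than the median change of the members and without a shift of all genes. That check does not show how well smaller changes are recovered. edgeR 4.0.16 called 28 and DESeq2 1.42.0 called 14 members as fallen on the recovered reads, which were alternatives together with other scalings, filters, pseudocounts, thinning and each sample left out. Subunit, origin and site of a protein were assigned from textbook knowledge of the mammalian structure. The members and all lists were chosen with earlier results of these data known. Named members are those with the 10 smallest adjusted p per direction, the 3 highest and 3 lowest in mean CPM, the Mrps18 paralogs and members whose call turns under an alternative. From each list up to 4 called genes per direction were named, with both guide targets and both mitochondrial rRNAs, and uncalled genes named beside them were chosen after their values were seen.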

Additional observations from a re-analysis of the deposited data

How the results depend on the processing

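Of 48 called members, 12 kept their call in all 18 alternatives: Mrpl12, Mrpl13, Mrpl16, Mrpl40, Mrpl45, Mrpl47, Mrpl9, Mrps22, Mrps23, Mrps25, Mrps26 and Mrps5. Another 11 lost it in 1 or 2 alternatives and 25 in 3 or more, and 0 changed direction. The count of fallen members, 47 in the limma test, was 14 with DESeq2, 27 after removing chromosome medians or setting the median change to 0, 28 with edgeR, 29 with TMM-scaled CPM, 30 with quantile normalization and with limma without trend, and 27 to 42 with 1 sample left out (27 without sgC replicate 2). The count of risen members, 1 in the limma test, was 2 with edgeR, TMM-scaled CPM, the median set to 0 and chromosome medians removed, 0 with limma without trend, and 0 to 1 with 1 sample left out. The members' median of -0.45 became -0.34 with DESeq2, edgeR and quantile normalization, -0.33 with TMM-scaled CPM, -0.29 with the median set to 0 and with chromosome medians removed, and -0.52 to -0.41 with 1 sample left out. Over the companion lists, the count of fallen genes, 40 in the limma test, was 9 with DESeq2, 22 with the median set to 0, 24 with limma without trend, 25 with quantile normalization and with chromosome medians removed, and 26 to 39 with 1 sample left out. The count of risen genes, 8 there, was 13 with DESeq2, 14 with the median set to 0, 15 with edgeR and TMM-scaled CPM, 5 with chromosome medians removed, 4 thinned, 3 with limma without trend, and 4 to 10 with 1 sample left out. Of all tested genes 23.8% fell and 11.4% rose in the limma test, 8.85% and 12.3% with DESeq2, and 14.4% and 17.4% with the median set to 0. The cause of the differences between settings was not tested. 

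Among a chosen set of genes followed through the settings, those that changed direction were not called in the limma test, apart from Vdac1 and mt-Rnr2. With chromosome medians removed Vdac1 and mt-Rnr2 turned to 0.20 and -0.12. Members not listed here also turned: of 76 tested, 70 lay below 0 in the limma test and 62 with the median set to 0. With chromosome medians removed, the median set to 0, TMM-scaled CPM, edgeR and DESeq2, Mrpl52 turned to 0.0459, 0.0632, 0.0356, 0.0504 and 0.0538, and Prkci to 0.13, 0.16, 0.13, 0.13 and 0.14. Prkci also turned to 0.0943 with quantile normalization and ran from -0.11 to 0.11 with 1 sample left out. Mrpl23 turned to 0.0631 with chromosome medians removed, 0.0569 with the median set to 0, 0.21 with quantile normalization and 0.0807 thinned. Mrpl22, Mrpl27 and mt-Rnr1 turned to 0.0013, 0.0119 and -0.22 (the last at adjusted p = 0.0158) with chromosome medians removed, and Mrps28 to -0.0932 thinned. For mt-Rnr1 and mt-Rnr2 the removed median was taken over genes that include them. Mrpl11 ran from -0.0974 to 0.13, and Mrpl39 ran from -0.18 to 0.15 with 1 sample left out. Myc turned to 0.0085 with DESeq2, 0.0069 with edgeR, 0.0705 with TMM-scaled CPM, 0.10 with the median set to 0, 0.14 with quantile normalization and 0.33 with chromosome medians removed. With 1 sample left out, Myc ran from -0.33 to 0.24 and Nrf1 from -0.0415 to 0.14. No paired analysis was possible because the labels give the groups no shared replicate numbers. Depth limits the lowest members, Mrps18b, Mrpl23 and Mrps36, to a few reads each.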

Other observations

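Of the members, 23 have a protein-coding neighbour on the opposite strand that starts within 1000 bases upstream of them, or up to 200 bases past their start. Mrpl46 and Mrps11, whose starts overlap by more than that, are not among them. Of the 23 pairs, 20 had both genes tested. Of those 20 neighbours 6 fell (30%), 2 rose and 12 were not called, with a median log2 fold change of -0.19, against 23.8% of all tested genes that fell. Beside the 12 members that fell, 4 neighbours fell and 2 rose. The risen neighbours were Klc4, a kinesin light chain gene that starts 207 bases from Mrpl2, and Fau, a cytosolic ribosomal protein gene that starts 59 bases from Mrpl49. Klc4 stood at 35.8, 38.7 and 35.0 CPM in sgPrkci/Prkcz samples, against 27.8, 19.7 and 23.03 CPM in sgC samples (0.63, limma, Benjamini-Hochberg adjusted p = 0.00411), and Mrpl2 fell by 0.63 on the log2 scale. The groups did not overlap for either gene of that pair. Whether members and their neighbours differ in change was not tested.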
